A study of Mus musculus with 10 samples.

Results

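The 39 Hox genes of the 4 mammalian clusters were followed by RNA sequencing in mouse embryonic fibroblasts (MEFs) that carried a 4-factor reprogramming mix. Members were all genes named Hoxa, Hoxb, Hoxc or Hoxd with a number, after matching the deposited Ensembl identifiers to GENCODE release M21, and all 39 were present among the 54752 genes of each file. They comprised 11 genes of the Hoxa cluster (GRCm38, chromosome 6, 52155590 to 52260880), 10 of Hoxb (chromosome 11, 96194316 to 96368256), 9 of Hoxc (chromosome 15, 102921103 to 103036852) and 9 of Hoxd (chromosome 2, 74668310 to 74765142). The MEFs were primary cells at passage 2 from E13.5 embryos, whose fathers carried an Oct4-GFP allele on a CBA/CaJ × C57BL/6J background and whose mothers were 129S4/SvJaeJ. Every sample, D0 included, had received 48 hours of infection by retroviruses encoding the factors Jdp2, Glis1, Esrrb and Sall4, so no group lacked the factors. Cells were collected after 0, 1, 3, 5 and 7 days in iCD3 medium (D0 to D7), with 2 libraries per day, numbered replicate 1 and replicate 2. The series describes these as independent experiments, and nothing further says how the cultures related, so a p-value here reflects library-to-library spread only, some of which may be technical.

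Hox genes encode homeodomain transcription factors that give cells along the head-to-tail axis and along the limbs their positional identity. Their order on the chromosome, numbered as paralogue groups 1 to 13 from the 3′ to the 5′ end of a cluster, matches the order of their domains from anterior to posterior. Fibroblasts taken from different body sites keep a site-specific set of active Hox genes in culture, while pluripotent cells hold the clusters largely silent under Polycomb proteins.

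The libraries held 1329377 to 4335931 estimated counts in total, of which 443 to 1378 per library belonged to Hox genes. Replicate 1 was the deeper on every day, and its fragments, judged from the effective lengths, were shorter (means of 135 to 158 bases, against 198 to 203 in replicate 2). A level of 3 counts corresponded to 0.653 to 2.32 CPM (counts scaled by library size). Of the 39 Hox genes, 30 passed the low-count filter and were tested, together with 12752 genes in all. The other 9 (Hoxa2, Hoxa6, Hoxb1, Hoxc11, Hoxc12, Hoxc13, Hoxd1, Hoxd3 and Hoxd4) had totals of 1 to 63.9 counts over the 10 libraries. All 13 fibroblast markers listed had counts at D0, where they summed to 13490 to 14751 CPM. At D7 the same 13 summed to 644 to 1025 CPM, while 11 markers of pluripotent cells summed to 25.9 to 27.7 CPM at D0 and to 1529 to 1968 CPM at D7. In bulk RNA, fewer cells of a type and less RNA per cell cannot be told apart, and the part of the shift in marker genes in the Hox values below was not tested.

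At D0 the MEFs expressed members of all 4 clusters, and the total over the 39 genes was lower on each later day than at D0. Summed TPM (the deposited length-corrected unit, used here to compare levels between genes) came to 462 and 518 in replicates 1 and 2 at D0, 331 and 389 at D1, 223 and 244 at D3, 183 and 269 at D5, and 169 and 276 at D7. Both libraries of each later day lay below both D0 libraries. The clusters differed in how much remained. Hoxa summed to 144 and 162 TPM at D0 and to 77.2 and 126 TPM at D7, Hoxb to 90.5 and 101 against 40.8 and 47.2, Hoxc to 126 and 145 against 28.6 and 60.5, and Hoxd to 101 and 109 against 22.3 and 42.4. On a log2 scale of the mean TPM, D7 over D0 was -0.59 for Hoxa, -1.12 for Hoxb, -1.61 for Hoxc and -1.70 for Hoxd, given as description without a test. Hoxa thus made up 31.2% and 31.3% of the Hox TPM at D0 and 45.7% in each D7 library.

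**Figure D1:**
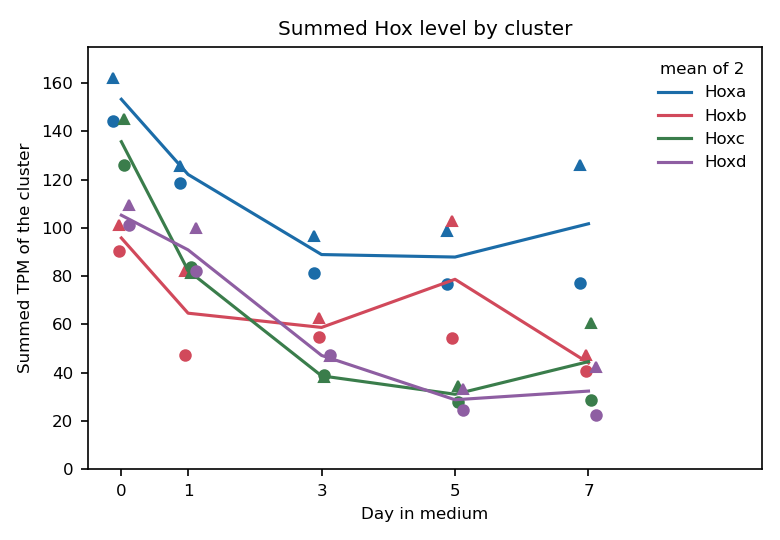
Summed TPM of each Hox cluster (vertical axis) by day in iCD3 medium (horizontal axis). Circles are replicate 1, triangles replicate 2 (shifted sideways for legibility) and lines the mean of both. Hoxc and Hoxd were at 101 to 145 TPM at D0 and at 22.3 to 60.5 TPM at D7, while Hoxa was at 77.2 and 126 TPM at D7.

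The leading members changed along with the totals. At D0 the highest mean TPM values were those of Hoxc6 (47.0), Hoxd11 (36.7), Hoxa10 (35.4), Hoxa7 (31.5) and Hoxc8 (27.3). By D3 Hoxa10 led at 21.7 TPM, followed by Hoxb13 at 15.4 and Hoxa9 at 15.2. At D5 Hoxb13 led at 28.6 TPM, and at D7 the highest were Hoxa9 (26.5), Hoxa10 (21.6) and Hoxc6 (14.4). The leading pair at D7 overlapped between libraries. Hoxa9 stood at 15.1 and 37.8 TPM and Hoxa10 at 16.2 and 27.0 TPM on that day.

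**Figure D2:**
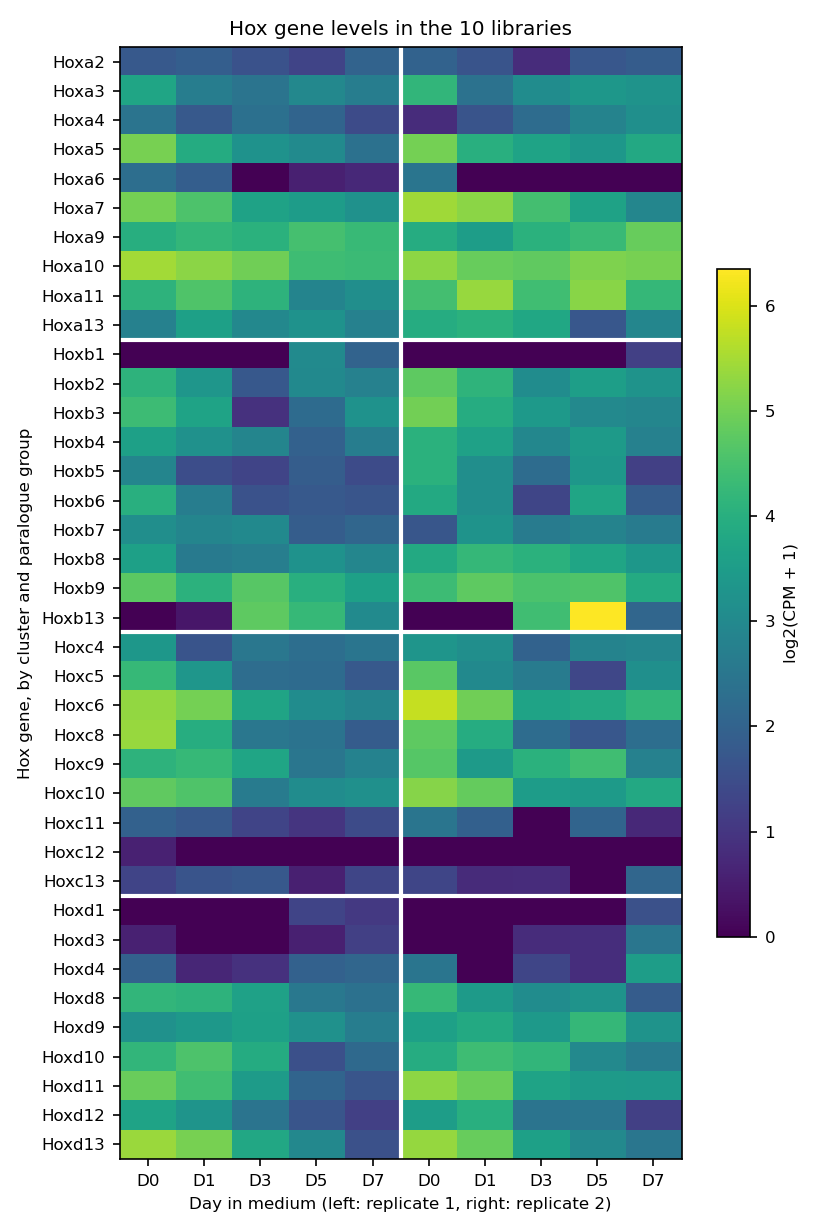
Levels of 38 of the 39 Hox genes (rows, by cluster and paralogue group) in the 10 libraries (columns, replicate 1 left of the white line and replicate 2 right of it), as log2(CPM + 1). Hoxc5, Hoxc6, Hoxc8, Hoxc10, Hoxd11 and Hoxd13 are brightest at D0 in both replicates, Hoxb13 is at 0 in both D0 libraries and at 80.4 CPM in D5 replicate 2, and Hoxb1 and Hoxd1 have counts at D5 and D7 only.

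Between D0 and D7, 14 of the 30 tested Hox genes were called at an adjusted p under 0.05 in edgeR's quasi-likelihood test, 12 lower and 2 higher. Among all 12752 genes tested, 17.9% were called, 8.71% lower and 9.15% higher. The median log2 change was -1.59 over the tested Hox genes and 0.06 over all genes tested. Lower genes were Hoxa5, Hoxa7, Hoxb6, Hoxc5, Hoxc6, Hoxc8, Hoxc10, Hoxd8, Hoxd10, Hoxd11, Hoxd12 and Hoxd13, and Hoxb13 was among the higher ones. By cluster, 2 of 9 tested Hoxa genes were lower, 1 of 9 Hoxb genes was lower and 1 higher, 4 of 6 Hoxc genes were lower and 5 of 6 Hoxd genes were lower. Median log2 changes were -0.66, -1.24, -1.91 and -2.47 in the same order. In CPM, both D7 libraries lay below both D0 libraries for 22 of the 30 genes (30.4% of all genes tested) and above them for 3 (34.0% of all genes tested). With the replicate number as a block, 17 Hox genes were called, and the share of all genes called rose to 28.5%. The count depended on single libraries, including those of days not compared. It fell without any one library of D0, D1, D3 or D7, which left 1 library for that day. The number of all genes called fell there too, and both numbers rose without either D5 library. Hoxa7, Hoxc8 and Hoxd13 kept the call without any one of the 10 libraries and in the 6 other settings tried.

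**Figure D3:**
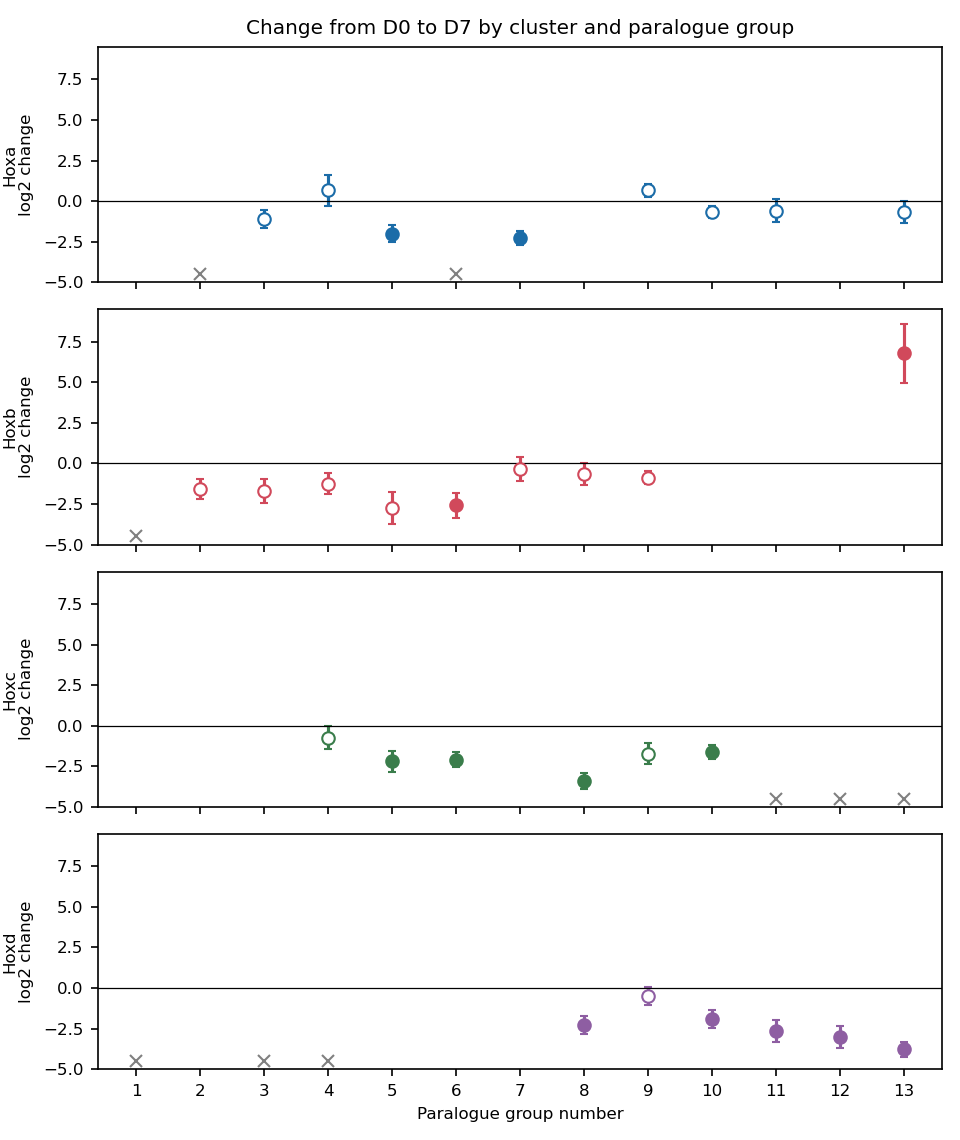
Log2 change from D0 to D7 (vertical axis) by paralogue group (horizontal axis) for 29 of the 30 tested Hox genes, 1 panel per cluster. Filled points passed an adjusted p under 0.05, open points did not, bars are the SE, and grey crosses along the lower edge mark members with too few counts to test. Hoxd13 lies at -3.78 and Hoxc8 at -3.41, and the point for Hoxb13 is a fitted value against 0 counts at D0.

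Hoxd had the largest share of lower genes among those tested, which were Hoxd8 to Hoxd13. The untested Hoxd1, Hoxd3 and Hoxd4 were not below D0 at D7 in pooled counts. Their pooled levels at D7 over D0 were at least 1.70-fold (Hoxd1), 8.27-fold (Hoxd3, 95% counting interval 1.24 to 352) and 1.64-fold (Hoxd4, 0.821 to 3.52). The Hoxd3 ratio rested on 1 count at D0, and its model overlaps that of Hoxd4 on the same strand. At D3, Hoxd4 was lower, at 0.327 of its D0 level (0.0903 to 0.998). The 5′ members of Hoxd, which pattern the limb ends, the tail and the urogenital tract, lie side by side at the start of the cluster. The promoter stretches of Hoxd13, Hoxd12, Hoxd11, Hoxd10 and Hoxd9 are shown because these neighbours spanned the strongest and the weakest change among the tested genes of the cluster. They come from RefSeq promoter windows on GRCm38.p6 (plus strand, the bases before the annotated start), with CpG dinucleotides in capitals, from chr2:74667975-74668224, chr2:74674763-74675012, chr2:74679308-74679556, chr2:74691641-74691890 and chr2:74697513-74697726.
Hoxd13: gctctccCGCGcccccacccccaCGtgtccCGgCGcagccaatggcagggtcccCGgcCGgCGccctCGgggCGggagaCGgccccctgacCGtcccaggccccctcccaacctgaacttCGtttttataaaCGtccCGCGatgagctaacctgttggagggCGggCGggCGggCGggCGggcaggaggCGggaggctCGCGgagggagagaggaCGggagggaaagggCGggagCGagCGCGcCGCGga
Hoxd12: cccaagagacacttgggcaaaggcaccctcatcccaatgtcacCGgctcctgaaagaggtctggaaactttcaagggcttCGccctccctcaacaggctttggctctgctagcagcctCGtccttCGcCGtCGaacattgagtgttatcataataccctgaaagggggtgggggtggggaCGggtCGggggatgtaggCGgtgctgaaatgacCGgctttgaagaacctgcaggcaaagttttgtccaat
Hoxd11: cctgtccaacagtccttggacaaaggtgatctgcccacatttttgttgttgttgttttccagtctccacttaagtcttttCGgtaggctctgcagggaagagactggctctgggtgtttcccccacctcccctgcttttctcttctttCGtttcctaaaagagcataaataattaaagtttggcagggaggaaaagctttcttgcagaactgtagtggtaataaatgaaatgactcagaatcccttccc
Hoxd10: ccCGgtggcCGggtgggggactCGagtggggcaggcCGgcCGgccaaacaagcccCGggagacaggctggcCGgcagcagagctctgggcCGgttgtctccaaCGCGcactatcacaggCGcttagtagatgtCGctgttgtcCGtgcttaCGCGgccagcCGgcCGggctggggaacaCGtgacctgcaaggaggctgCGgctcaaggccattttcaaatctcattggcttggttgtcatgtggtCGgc
Hoxd9: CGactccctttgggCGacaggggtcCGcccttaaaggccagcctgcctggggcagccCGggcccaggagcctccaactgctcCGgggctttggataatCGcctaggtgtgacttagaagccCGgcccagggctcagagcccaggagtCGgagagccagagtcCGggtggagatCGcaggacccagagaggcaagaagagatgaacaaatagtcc
The stretches held 31, 10, 2, 20 and 10 CpGs in that order, over 250, 250, 249, 250 and 214 bases. The full windows of 300 bases that they come from held 37, 13, 4, 22 and 20. Over the 24 windows of 300 bases found for 22 of the Hox genes, the median was 14.5 CpGs, against 7 over the 32851 windows of the whole table. The table holds a second window for Hoxd11 (chr2:74682073-74682372), with 25 CpGs in 300 bases, against 4 in the window whose stretch is shown, so its CpG number depends on the start taken.

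Hoxd13, which specifies the digits and the genital tubercle, was at 41.1 and 39.7 CPM at D0, 32.3 and 28.5 at D1, 12.9 and 11.2 at D3, 6.76 and 6.96 at D5, and 1.96 and 4.60 at D7. Each day's libraries lay below those of the day before, with no overlap. The log2 change from D0 to D7 was -3.78 (SE 0.45, edgeR adjusted p = 0.000442), the strongest fall among the Hox genes. Next to it, Hoxd12 was at 11.7 and 10.5 CPM at D0 and at 1.31 CPM in both D7 libraries, which rested on 6 and 2 counts (log2 change -3.04, SE 0.69, edgeR adjusted p = 0.0119). Hoxd11, which patterns the forearm together with Hoxa11, stood at 28.9 and 37.4 CPM at D0, 10.2 and 11.9 at D3, and 2.18 and 9.86 at D7. Its D7 libraries were far apart from one another but both lay below D0 (log2 change -2.65, SE 0.69, edgeR adjusted p = 0.0220). Hoxd10 ran a later course, with 17.1 and 14.2 CPM at D0, 22.8 and 19.9 at D1, 14.0 and 17.1 at D3, 1.93 and 6.96 at D5, and 3.48 and 5.26 at D7. Libraries of D0, D1 and D3 were all above those of D5 and D7 (D7 against D0: log2 change -1.90, SE 0.57, edgeR adjusted p = 0.0422). Hoxd8, a trunk gene at the other side of Hoxd9, was at 17.1 and 18.0 CPM at D0 and 4.13 and 2.63 at D7 (log2 change -2.29, SE 0.55, edgeR adjusted p = 0.0150). Hoxd9 was the tested exception. It stood at 8.32 and 11.2 CPM at D0, 8.21 and 17.8 at D5, and 5.44 and 8.54 at D7, with overlapping groups (log2 change -0.51, SE 0.55, edgeR adjusted p = 0.583).

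Along the chromosome the log2 changes of Hoxd13, Hoxd12, Hoxd11, Hoxd10 and Hoxd9 were -3.78, -3.04, -2.65, -1.90 and -0.51, at starts 0, 6.7, 11.2, 23.6 and 29.4 kb from that of Hoxd13. Hoxd8, at 36.3 kb, broke the order at -2.29. The SE of these values were 0.45 to 0.69, and the steps between genes were not tested. Apart from Hoxd13, calls in this cluster depended on single libraries, and that of Hoxd10 held in 4 of the 6 other settings tried. The edgeR adjusted p of Hoxd12 was 0.0741 without D0 replicate 1, 0.117 without D7 replicate 1 and 0.0571 without D7 replicate 2. For Hoxd11 it was 0.0730 without D0 replicate 1, 0.114 without D0 replicate 2 and 0.171 without D7 replicate 1, where the log2 change was -1.74. Hoxd8 reached 0.0771 to 0.0903 without any one of the D0 or D7 libraries. Hoxd10 reached 0.0593 to 0.272 without any one library of D0, D1, D3 or D7, and 0.0557 in DESeq2.

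In Hoxc, the lower genes were Hoxc5, Hoxc6, Hoxc8 and Hoxc10, which pattern the trunk from the base of the neck to the lumbar level. Hoxc8, a thoracic gene, stood at 40.6 and 26.2 CPM at D0, 14.6 and 14.2 at D1, 4.68 and 3.73 at D3, 4.35 and 2.32 at D5, and 2.61 and 3.94 at D7. All libraries from D3 on lay below those of D1, which lay below those of D0 (D7 against D0: log2 change -3.41, SE 0.51, edgeR adjusted p = 0.00144). Hoxc6, the Hox gene with the highest TPM at D0, was at 38.7 and 54.6 CPM at D0, 31.6 and 30.6 at D1, 12.0 and 11.9 at D3, 7.49 and 13.1 at D5, and 6.31 and 17.1 at D7. Its D7 libraries were apart from each other and both below D0 (log2 change -2.09, SE 0.48, edgeR adjusted p = 0.0126). For Hoxc10, a hindlimb and lumbar gene, the values were 26.9 and 35.9 CPM at D0, 23.4 and 27.7 at D1, 5.27 and 10.4 at D3, and 8.05 and 13.1 at D7, with D3 and D7 libraries below all those of D0 and D1 (D7 against D0: log2 change -1.61, SE 0.44, edgeR adjusted p = 0.0292). Hoxc5 stood at 18.1 and 25.4 CPM at D0 and 2.39 and 7.88 at D7 (log2 change -2.20, SE 0.66, edgeR adjusted p = 0.0421). Its gene model overlaps those of Hoxc6, Hoxc8, Hoxc9 and Hoxc10 on the same strand, so the split of reads between them is uncertain, and limma on log2(TPM + 1) gave Hoxc5 a log2 change of -0.96 with an adjusted p of 0.423. The Hoxc5 call held in 4 of the 6 other settings tried. The remaining tested members were Hoxc9, at 16.1 and 24.7 CPM at D0 and 6.09 and 5.91 at D7 (edgeR adjusted p = 0.0897, and 0.0466 with the replicate block), and Hoxc4, at 9.30 and 8.98 against 4.57 and 6.57 (edgeR adjusted p = 0.527). Both had D7 libraries below D0 without passing the test.

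Hoxc8 kept its call without any library, whereas the others did not. The edgeR adjusted p of Hoxc6 was 0.101 without D0 replicate 2 and 0.124 without D7 replicate 1, with log2 changes of -1.77 and -1.44. For Hoxc10 it was 0.0861 and 0.186 without D0 replicate 1 or 2 and 0.236 and 0.0578 without D7 replicate 1 or 2. Hoxc5 reached 0.0542 to 0.294 without any one library of D0, D1 or D3 or without D7 replicate 1, where its log2 change was -1.45.

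The course was read as an early stretch (D3 against D0) and a late one (D7 against D3), which share the D3 libraries. In the early stretch 8 Hox genes were called, 7 lower (Hoxb2, Hoxb6, Hoxc5, Hoxc6, Hoxc8, Hoxc10 and Hoxd13) and 1 higher (Hoxb13), against 12.1% of all genes tested (5.94% lower and 6.21% higher). Hoxc contributed 4 of its 6 tested genes and Hoxd 1 of 6. The log2 changes were -2.95 for Hoxc8 (SE 0.50, edgeR adjusted p = 0.00361), -2.07 for Hoxc10 (SE 0.46, adjusted p = 0.0152), -1.95 for Hoxc6 (SE 0.48, adjusted p = 0.0222), -2.29 for Hoxc5 (SE 0.67, adjusted p = 0.0476) and -1.73 for Hoxd13 (SE 0.39, adjusted p = 0.0154). In the late stretch 1 Hox gene was called, Hoxd13, lower again (log2 change -2.05, SE 0.46, edgeR adjusted p = 0.0321), against 5.37% of all genes tested (2.31% lower and 3.07% higher). The median log2 change of Hoxc was -2.01 in the early stretch and -0.02 in the late one, while that of Hoxd was -1.09 and then -1.58. The values over all genes tested were 0.02 and 0.02. In Hoxd10 the early log2 change was -0.03 and the late one -1.88 (SE 0.57, edgeR adjusted p = 0.0784). Blocking by replicate number raised the early count to 12 by adding Hoxa5, Hoxa7, Hoxb3 and Hoxd11 (edgeR adjusted p of 0.0139, 0.0210, 0.0133 and 0.0272), and the late count to 3, with Hoxd10, lower (0.0240), among those added. The block raised the share of all genes called to 21.5% in the early stretch and 18.4% in the late one. With the block and without it, the late Hox count lay below the share of all genes. The early count fell without any one D0, D1, D3 or D7 library, which left 1 library for that day. Fewer of all genes were called in these fits too. Hoxb13 was the 1 gene still called in every one of these. In the late stretch the Hoxd13 call was lost without any one of the D0, D3 or D7 libraries, where fewer of all genes were called too. Without either D5 library, more Hox genes and more of all genes were called. With limma on log2(TPM + 1), the early call of Hoxc5 (adjusted p = 0.212) and the late call of Hoxd13 (0.0970) were lost. Of the 6 other settings tried, 4 kept the early Hoxc5 call and 5 the late Hoxd13 call. A difference between the clusters in timing was not tested.

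**Figure D4:**
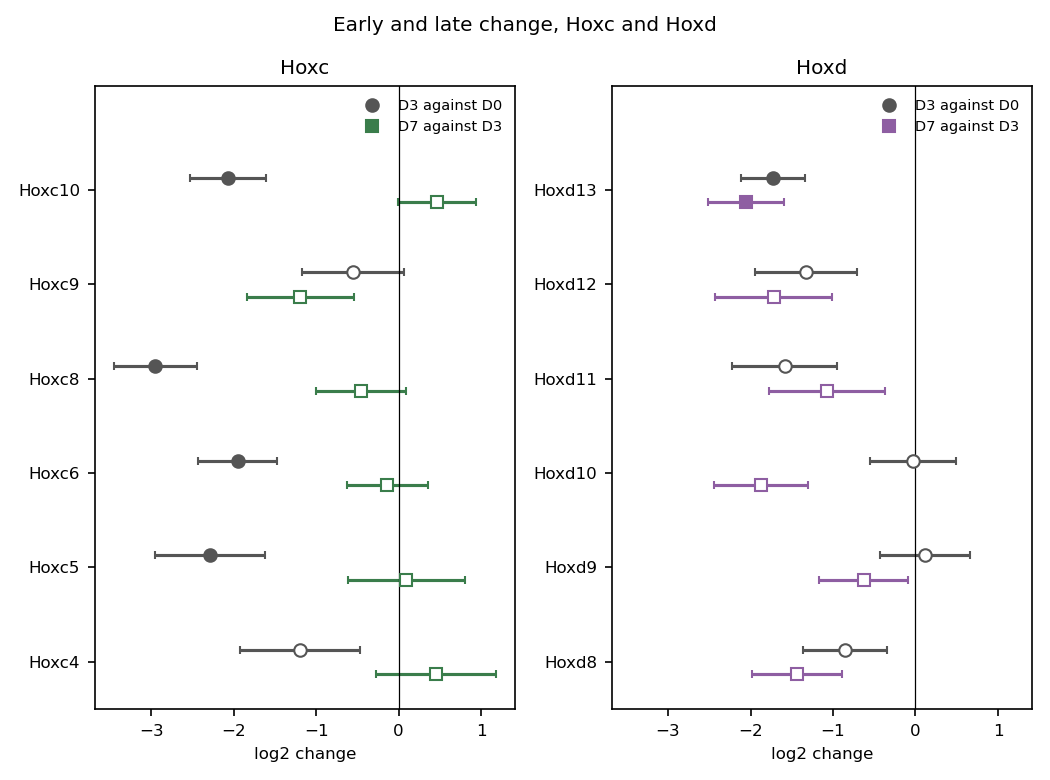
Log2 change (horizontal axis) of the tested Hoxc and Hoxd genes (rows) from D0 to D3 (circles) and from D3 to D7 (squares). Bars are the SE and filled symbols passed an adjusted p under 0.05. Hoxc8 lies at -2.95 and then -0.46, and Hoxd13 at -1.73 and then -2.05.

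Neighbouring days gave few calls. From D0 to D1 no Hox gene was called (4 had an unadjusted p under 0.05, Hoxa3, Hoxa5, Hoxc5 and Hoxc8, all with negative changes, against 17.0% of all genes at that threshold), while 4.52% of all genes were called (2.12% lower and 2.41% higher), and DESeq2 and limma called 0. Between D1 and D3 edgeR called 0 (7 had an unadjusted p under 0.05, against 8.49% of all genes at that threshold), with 0.0549% of all genes called, and limma called 0. DESeq2 called Hoxb13 (adjusted p = 0.00294) and 1.0% of all genes. The edgeR fit with the replicate block called Hoxb13 (edgeR adjusted p = 0.0171) and Hoxc10 (0.0266), and 1.62% of all genes. From D3 to D5 the count was 0 in edgeR (1 with an unadjusted p under 0.05, Hoxd10, against 11.8% of all genes at that threshold, with 0.0706% of all genes called, 0.00784% lower and 0.0627% higher) and 0 in DESeq2 and limma. Leaving out D5 replicate 2 brought the call of Hoxd10 (edgeR adjusted p = 0.0328). Between D5 and D7 edgeR called 0 Hox genes (2 with an unadjusted p under 0.05, Hoxb13 and Hoxd13, against 6.35% of all genes at that threshold, with 0.0% of all genes called) and limma called 0. DESeq2 called Hoxb13 lower (adjusted p = 0.0383, with 0.235% of all genes called), as did edgeR without D5 replicate 1 (adjusted p = 0.0209). Across the 5 days jointly, 12 Hox genes were called, against 19.1% of all genes. Hoxb6 and Hoxd8, called from D0 to D7, were not among them, and the replicate block added those 2 with Hoxb2 and Hoxb3, while it raised the share of all genes called to 34.9%. The joint count fell without any one library of D0, D1, D3 or D7, which left 1 library for that day. Fewer of all genes were called there too.

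In Hoxa the genes called lower were Hoxa5 and Hoxa7, and none of the posterior genes from Hoxa9 to Hoxa13 was called. Hoxa7, a thoracic gene, was at 31.3 and 42.7 CPM at D0, 22.8 and 37.0 at D1, 11.7 and 20.9 at D3, 10.4 and 11.6 at D5, and 8.27 and 6.57 at D7, with both D7 libraries below all those of earlier days (log2 change from D0 -2.27, SE 0.43, edgeR adjusted p = 0.00484). Hoxa5, which acts at the neck-to-thorax boundary and in the lung, stood at 32.3 and 31.4 CPM at D0, 14.0 and 14.9 at D1, 8.49 and 11.9 at D3, and 4.13 and 13.1 at D7. All later libraries lay below both of D0, and those of D7 were far apart (log2 change -1.999, SE 0.53, edgeR adjusted p = 0.0233). The adjusted p of Hoxa5 was 0.117 and 0.104 without D0 replicate 1 or 2 and 0.191 without D7 replicate 1, with a log2 change of -1.27 in the last. Hoxa3, which patterns the pharynx and neck and whose model overlaps those of Hoxa4, Hoxa5 and Hoxa6 on the same strand, was at 12.2 and 17.2 CPM at D0 and 5.44 and 8.54 at D7 (edgeR adjusted p = 0.204). Hoxa4 was tested and not called. The posterior genes were at these levels. Hoxa10, the uterine and lumbar paralogue, stood at 43.1 and 37.4 CPM at D0, 30.4 and 26.8 at D3, and 19.1 and 32.2 at D7 (log2 change -0.68, SE 0.38, edgeR adjusted p = 0.250). Hoxa9, known from blood progenitors and leukaemia, was at 14.7 and 14.2 CPM at D0, 15.5 and 15.6 at D3, 21.3 and 18.6 at D5, and 18.3 and 28.3 at D7. Both D7 libraries lay above both D0 libraries, but the log2 change of 0.66 (SE 0.39) did not pass the test (edgeR adjusted p = 0.292). Hoxa11 was at 16.1 and 20.96 CPM at D0 and 7.83 and 17.7 at D7 (edgeR adjusted p = 0.622), and Hoxa13, the paralogue of Hoxd13 in digits and hindgut, at 5.87 and 14.2 against 5.87 and 6.57 (edgeR adjusted p = 0.559). For Hoxa13 the sign of the log2 change depended on 1 library, since it was -0.67 with all libraries and 0.11 without D0 replicate 2.

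**Figure D5:**
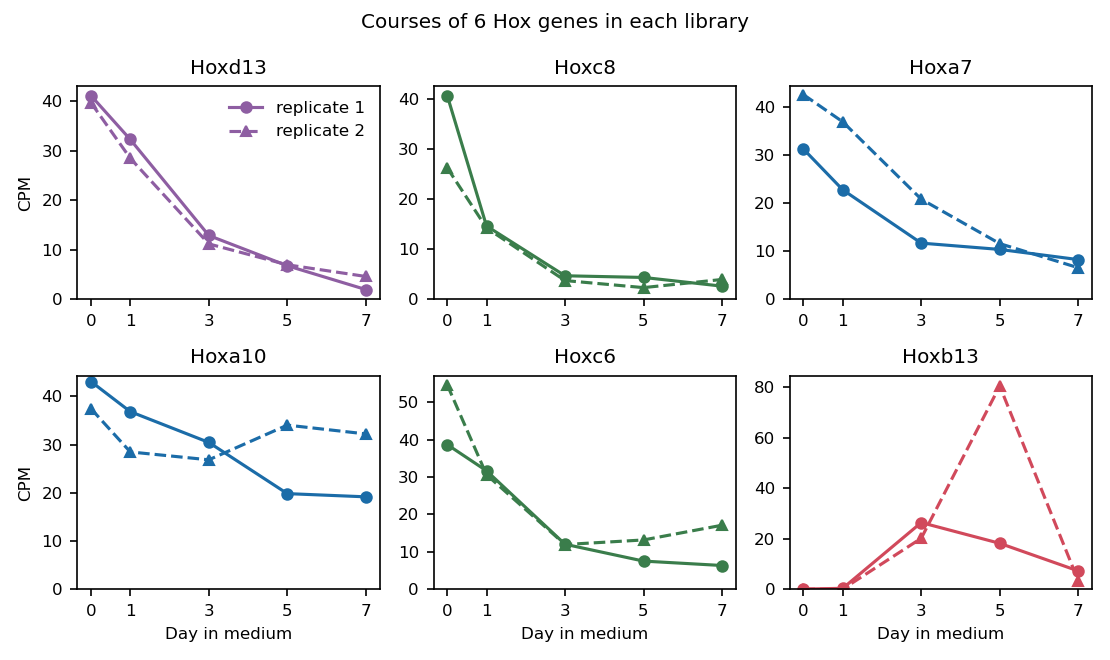
CPM (vertical axes, each from 0 to its own maximum) by day in iCD3 medium (horizontal axes) for 6 Hox genes, with replicate 1 as circles and solid lines and replicate 2 as triangles and dashed lines. Hoxd13 runs from 41.1 and 39.7 CPM at D0 to 1.96 and 4.60 at D7, Hoxc6 from 38.7 and 54.6 to 6.31 and 17.1, and Hoxb13 from 0 to 80.4 CPM in D5 replicate 2.

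In Hoxb, 8 of the 9 tested genes had negative log2 changes from D0 to D7 but Hoxb6 was the single one called lower. Hoxb6, expressed in the posterior trunk and limb bud mesoderm, was at 15.2 and 13.47 CPM at D0, 5.48 and 7.83 at D1, 2.05 and 1.49 at D3, 2.42 and 12.4 at D5, and 2.18 and 2.63 at D7. Apart from D5 replicate 2, libraries from D3 on were below those of D0 and D1 (D7 against D0: log2 change -2.58, SE 0.79, edgeR adjusted p = 0.0444). Its D7 level rested on 10 and 4 counts, and the call was lost without any one library of D0, D1, D3 or D7 (edgeR adjusted p of 0.0576 to 0.243). Hoxb2, a hindbrain gene, stood at 16.1 and 26.2 CPM at D0, 9.13 and 16.4 at D1, 2.34 and 7.45 at D3, and 5.87 and 8.54 at D7. It was called lower at D3 (log2 change -2.24, SE 0.65, edgeR adjusted p = 0.0458) and, at D7, with the replicate block (edgeR adjusted p = 0.0199, and 0.0995 without it). The D3 call was lost without any one library of D0, D1 or D7 or without D3 replicate 1 (edgeR adjusted p of 0.0564 to 0.300), with a log2 change of -1.44 without D3 replicate 1. Hoxb6 was also called lower at D3 (log2 change -2.93, SE 0.82, edgeR adjusted p = 0.0406), and lost that call without any one library of D0, D1, D3 or D7.

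The other Hoxb genes, given as CPM in replicates 1 and 2 of D0 and then D7, did not pass the test. Hoxb3, a neck and hindbrain gene, was at 19.6 and 30.7 against 8.48 and 6.57 (edgeR adjusted p = 0.148), Hoxb4, known for expanding blood stem cells, at 11.3 and 15.7 against 5.44 and 5.91 (0.207), and Hoxb5 at 6.36 and 15.7 against 1.74 and 1.31 (0.0794, and 0.0259 with the replicate block). In these 3 the D7 libraries lay below both of D0. Hoxb7 was at 7.83 and 2.25 against 3.26 and 5.26 (edgeR adjusted p = 0.803), with overlapping groups. Its log2 change was -0.35, but 0.91 without D0 replicate 1. Hoxb8 stood at 11.3 and 13.47 against 6.53 and 9.20 (0.552) and Hoxb9, a thoracic gene, at 25.9 and 19.5 against 11.1 and 13.8 (0.158), again with D7 below D0. From D0 to D3 the log2 changes of Hoxb7, Hoxb8 and Hoxb9, none called, were 0.25, -0.29 and 0.05.

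Hoxb13, the most 5′ gene of its cluster and a gene of the tail bud, hindgut and prostate, had a course of its own. It had 0 counts in both D0 libraries, 1 and 0 counts at D1, 26.3 and 20.1 CPM at D3 (90 and 27 counts), 18.1 and 80.4 at D5, and 7.18 and 3.29 at D7. Both D3 and both D5 libraries were above all those of D0, D1 and D7. The pooled level was at least 30.6-fold higher at D3 than the 3-count limit over the D0 libraries, at least 41.4-fold higher at D5 and at least 8.06-fold higher at D7. It was called higher at D3 (edgeR adjusted p = 0.00533) and at D7 (0.0294). The D3 call held without any one library and in every other setting tried, whereas the D7 call was lost without D0 replicate 1 (0.150), D0 replicate 2 (0.103) or D7 replicate 1 (0.158). The D5 libraries were far apart in TPM too, at 13.1 and 44.0.

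The 9 untested members fell into several kinds. Hoxb1 and Hoxd1, the group 1 genes of their clusters, had 0 counts in all 6 libraries of D0, D1 and D3. They were singled out after their values were seen. Hoxb1, a marker of a hindbrain segment and of early posterior mesoderm, had 30 and 0 counts at D5 and 14 and 2 at D7, and Hoxd1 had 6 and 0 at D5 and 5 and 3 at D7. Against the 3-count limit over D0, Hoxb1 was at least 6.95-fold higher at D5 and at least 3.39-fold higher at D7, and Hoxd1 at least 1.39-fold and 1.70-fold. These bounds cover counting error only, and D5 replicate 2 had no count of either gene. Hoxb1 is known to be bound by HOX and PBX proteins together, and its promoter stretch (RefSeq, GRCm38.p6, chr11:96365508-96365751, plus strand) is shown with a match to the PBX and HOX motif TGATNNAT in capitals, found in a search of both strands.
Hoxb1: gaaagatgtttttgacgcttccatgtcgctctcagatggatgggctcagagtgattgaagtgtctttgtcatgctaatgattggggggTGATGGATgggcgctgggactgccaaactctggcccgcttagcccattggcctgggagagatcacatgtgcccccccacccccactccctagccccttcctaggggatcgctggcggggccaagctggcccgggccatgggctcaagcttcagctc
This motif occurred in 4 of the 24 Hox windows (16.7%) and in 8.85% of all windows of that length. The caudal motif TTTATG, on either strand, occurred in 5 Hox windows (20.8%) and in 11.9% of all windows. A match describes letters in the window, and binding was not measured. Among the other untested members Hoxa6 had 8 and 6 counts at D0, 0 and 0 at D3, and 3 and 0 at D7. Hoxd4 had 6 and 6 counts at D0 and 15 and 16 at D7, and Hoxd3, which overlaps it on the same strand, had 1 and 0 and then 6 and 7. Hoxa2 and Hoxc11 had 1 to 14 and 0 to 8 counts per library, Hoxc13 had 0 to 8, and Hoxc12 had a single count in D0 replicate 1.

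By paralogue group, the changes from D0 to D7 were not uniform along the axis. Among all genes tested, 8.71% were called lower and 9.15% higher, with a median log2 change of 0.06. In groups 1 to 3 none of the 4 tested genes passed as lower, with a median log2 change of -1.34. In groups 4 to 8, 7 of 13 were lower, with a median log2 change of -2.09. In groups 9 to 13, 5 of 13 were lower and 1 higher, with a median of -0.89, and 4 of the 5 lower genes belonged to Hoxd. Paralogues of the same group often parted. In group 9 none of the 4 tested genes was called, with log2 changes from -1.74 (Hoxc9) to 0.66 (Hoxa9), whereas in group 5 all 3 lay between -2.74 and -1.999. In group 13, Hoxd13 was lower, Hoxb13 higher and Hoxa13 in neither set. As shares of the summed Hox TPM, groups 4 to 8 held 47.3% and 45.6% at D0 and 32.6% and 38.1% at D7, and groups 9 to 13 held 44.0% and 44.2% against 47.9% and 50.0%. Differences between these classes were not tested.

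Genes that act with or upon the Hox clusters were read from lists, with the same test and background (D7 against D0). In that comparison 8.71% of all genes tested were called lower and 9.15% higher. Of 8 tested TALE homeodomain cofactors (Pbx, Meis and Pknox families, which bind DNA with Hox proteins), none was higher, with a median log2 change of -0.51. Of 9 tested upstream inputs (caudal and retinoid genes, Fgf8, Gdf11 and T) 5 were higher. Cdx1, a caudal factor that activates Hox genes in the posterior embryo, was first among them, with no counts at D0, 60.5 and 44.0 CPM at D7, and thus at least 73.2-fold above the 3-count limit. Polycomb and trithorax regulators numbered 24 tested genes, of which 8 were higher and 1 lower, with a median log2 change of 0.86. Jarid2, a subunit that guides Polycomb repressive complex 2, stood at 29.4 and 30.7 CPM at D0 and 293 and 184 at D7 (log2 change 2.99, SE 0.39, edgeR adjusted p = 0.000668), and Bmi1, a subunit of Polycomb repressive complex 1, at 50.4 and 45.7 against 23.3 and 27.6 (log2 change -0.93, adjusted p = 0.0488). The 1 tested even-skipped gene beside the clusters and the 2 tested noncoding genes within them (of 12 found) gave no call. Among 13 tested factors of limb and body wall position, 7 were lower and none higher, with a median log2 change of -2.93. Lhx9, a limb bud gene, had the largest fall, from 14.2 CPM in both D0 libraries to 1 and 0 counts at D7 (pooled ratio 0.0133, 95% counting interval 0.000329 to 0.0775, edgeR adjusted p = 0.00320).

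Markers of cell types that the cultures could hold moved as follows beside the Hox genes, and their part in the Hox values was not tested. Calls are for D7 against D0, where 8.71% of all genes tested were lower and 9.15% higher. Of 13 fibroblast markers, 10 were lower at D7 and none higher (median log2 change -3.36), led by Col1a1, a collagen chain (3933 and 5530 CPM at D0, 108 and 228 at D7, log2 change -4.82, edgeR adjusted p = 0.000209). The list summed to 3029 to 4013 CPM at D1 and 1010 to 1577 CPM at D3. All 11 pluripotent markers were higher, led by Tdgf1, a Nodal co-receptor (no counts at D0 against 174 and 89.4 CPM in the D7 libraries). In the primitive streak and posterior embryo list 5 of 7 tested genes were higher, led by T, the mesoderm factor Brachyury, and 3 of these 5 (T, Fgf8 and Cdx2) are also 3 of the 5 called upstream inputs. The 9 listed genes summed to 6.85 to 8.98 CPM at D0, 62.9 to 74.5 at D3, 138 to 150 at D5 and 72.9 to 99.6 at D7. Gut endoderm had 2 of 2 tested markers higher (led by Sox17), endothelium 3 of 4 (led by Pecam1) and neural crest 1 of 3 (Erbb3). Skeletal muscle had 1 higher (Ttn) and 1 lower (Des) of 2, with its defining factor Myod1 at 0 from D1 to D7. Neural (2 tested), macrophage (1) and keratinocyte (1) markers gave no call, and Olig2 was at 0 on every day.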

How the data were processed

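RNA was sequenced from 10 libraries, 2 for each of 5 days. Per the file headers, the deposited gene tables are RSEM output with an expected count (estimated reads per gene, not normalized) and TPM (corrected for effective length, with an equal sum in each library). Per the submitters' processing notes, bcl2fastq, Bowtie2 and RSEM were used with mm10, without versions. Not given in the sources used here were the annotation release and strand use. The labels' protocols name 2 library kits (VAHTS mRNA-seq V3 and TruSeq RNA) for all samples and do not assign them to libraries, so kit and replicate cannot be told apart here. Identifiers were matched to GENCODE M21 (54723 of 54752 genes).

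After rounding, expected counts went into edgeR 4.0.16 under R 4.3.3 (TMM scaling, quasi-likelihood test) in 1 model with day as its term over all 10 libraries, with low genes removed by filterByExpr at its minimum of 10 counts. P-values were Benjamini-Hochberg adjusted over the 12752 tested genes and called under 0.05. Each SE was derived from the log2 change and its F statistic (change over root F). CPM refers to TMM-scaled totals of the tested genes, and pooled ratios and fold bounds to unscaled totals. The fit was tested on simulated data. Bounds and intervals (95%, exact) cover counting error only, and 3 counts over the D0 libraries served as the limit where D0 had none. The 2 libraries of each day differed by more than sampling noise (chi-square per gene 6.92 to 22.5).

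Replicate numbers come from the sample labels. Same-numbered libraries deviated together (correlation 0.273 to 0.436 over 10 pairs of days), so the numbers were taken to pair the libraries and a fit with the replicate block was added.

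Alternatives were RLE size factors, DESeq2 1.42.0, no filter, a minimum count of 30, limma 3.58.1 on log2(TPM + 1), the replicate block, and leaving out each library. Named genes are Hox genes called in any comparison or with a mean of at least 5 CPM, and from each other list the called gene with the largest change in each direction and every called cofactor. Results of some genes are not reported here. Members and lists were chosen with earlier results of these data known. Promoter windows (RefSeq, GRCm38.p6) run from 250 bases before to 50 after a start and were found for 22 Hox genes, and 17 had none in the table.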

Additional observations from a re-analysis of the deposited data

How the results depend on the processing

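With the replicate block, 17 Hox genes were called between D0 and D7, 12 between D0 and D3 and 16 across the 5 days (28.5%, 21.5% and 34.9% of all genes tested), and beyond the genes named in the report the pairing changed no other call of a Hox gene. Counts that moved by over 1.5 times in other settings were these. A minimum count of 30, which left 16 Hox genes to test, gave 8 for D7 against D0 and 5 for D3 against D0. Of all 9996 genes tested there, 1857 and 1392 were called. For D3 against D1 the Hox count was 1 in DESeq2, 1 without a filter and 2 with the block. Of all genes, 128 of 12752, 272 of 27231 and 206 of 12752 were called. For D7 against D5 the Hox count was 1 in DESeq2 and 1 without a filter, with 30 of 12752 and 176 of 27231 genes called in all. For D7 against D3 the Hox count was 3 without a filter, 0 with limma on TPM and 3 with the block. Of all genes, 1664 of 27231, 435 of 12752 and 2351 of 12752 were called. Apart from the smaller number of genes tested, the cause was not tested.

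Leaving out 1 library at a time gave 3 to 15 calls for D7 against D0, 1 to 9 for D3 against D0, 0 to 3 for D7 against D3 and 3 to 16 across the 5 days. The ranges were 0 to 0 for D1 against D0 and 0 to 1 for each of D3 against D1, D5 against D3 and D7 against D5. The number of all genes called also moved with the library left out. It fell or rose from the main fit for D7 against D0, D3 against D0, D7 against D3 and across the 5 days. The Hox ranges alone therefore do not show a dependence particular to Hox genes. Cluster sums, as log2 of D7 over D0, ran from -0.99 to -0.28 for Hoxa and -1.23 to -1.02 for Hoxb. They ran from -2.25 to -1.17 for Hoxc and -2.24 to -1.31 for Hoxd.

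Over 29 named Hox genes and 451 alternative values of the change from D0 to D7, 381 kept direction and side of the threshold, 58 lost the call, 9 gained it and 3 turned direction. Those 3 were Hoxa13 without D0 replicate 2 (0.111, in a range from -1.147 over the libraries left out), and Hoxb7 without D0 replicate 1 (0.907) and without D7 replicate 1 (0.009), in a range from -0.885. The median log2 change of all genes was 0.16 without a filter (D7 against D0), and with limma on TPM 0.17 (D7 against D5) and 0.13 (D7 against D3). Replicate 2 held 1329377 to 1492105 counts, where 3 counts correspond to 1.97 to 2.32 CPM, and 9 Hox genes had too few counts to be tested.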
